A study of Mus musculus with 9 samples.

Results

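Genes of the distal nephron were read in RNA of isolated mouse glomeruli, the filtering units of the kidney. The set holds 35 genes that mark the thick ascending limb, the distal convoluted tubule, the connecting tubule, the principal and intercalated cells of the collecting duct, or several of these segments together. Members were chosen by gene name, and 46 of the 56605 probes of the array carry one of those names. Of the 35 genes, 33 were among the 24150 features tested, and 27 were well above background on all 9 arrays. Cldn16 and Trpv5 were too dim to be tested.

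The glomeruli came from male BTBR mice aged 22 weeks and were isolated with magnetic beads after 18 weeks on the assigned food. The first group was BTBR ob/ob mice given food with enarodustat, which blocks prolyl hydroxylases and so stabilises hypoxia-inducible factor (HIF). The second was BTBR ob/ob mice on vehicle food, which are leptin-deficient, obese and diabetic. The third was BTBR wild-type mice on vehicle food. Each group had 3 samples, each hybridised to its own one-colour array. The labels do not say whether a sample was 1 mouse or a pool, so every p-value measures the spread between these samples.

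The distal nephron is the stretch of tubule from the thick ascending limb to the end of the collecting duct. It takes back salt, calcium and magnesium in turn, and in the collecting duct it adjusts water, potassium and acid under vasopressin and aldosterone. Its cells carry transporters, channels and claudins that podocytes, endothelial and mesangial cells, the resident cells of a glomerulus, are not known for. In whole isolates of this kind, fewer cells of a type and less RNA per cell cannot be told apart.

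Every level here is the log2 signal of a probe relative to the 75th percentile of its own array. Group means are given ± SD (n = 3), and differences between groups are log2 changes ± SE of a limma fit over all features. Levels of different probes are not comparable with each other. Precision is limited by having 3 arrays a group.

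On the probe used for each gene, most distal nephron genes had higher mean levels in glomeruli of enarodustat-treated than of vehicle-treated ob/ob mice. The difference was 0.82 to 3.33 on the log2 scale for every tested member but Scnn1a and Scnn1b. These encode the alpha and beta subunits of the epithelial sodium channel. A second probe of Scnn1a differed by 2.20, like most members, and a second probe of Cdh16 by only 0.14. None of these differences passed the test after adjustment. Those with the largest differences were Slc12a3, the thiazide-sensitive sodium chloride cotransporter (10.0-fold), Pvalb, the calcium-binding protein parvalbumin (8.88-fold), and Ppp1r1a, an inhibitor of protein phosphatase (8.46-fold). Between vehicle-treated ob/ob and wild-type mice only Egf, the epidermal growth factor precursor, passed the test, 2.40-fold lower in ob/ob. Between enarodustat-treated ob/ob and wild-type mice only Pvalb passed, 10.4-fold higher in the treated group. The call of Pvalb was lost when any of several single arrays was left out. Of all features, 7.55% passed in the former comparison and 10.2% in the latter.

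Setting enarodustat-treated against vehicle-treated ob/ob mice, limma called none of the 24150 features at an adjusted p of 0.05, and so none of the members (0% called). An unadjusted p under 0.05 was reached by 1691 features (7%) in either direction. In the higher direction it was reached by 15 of the 33 tested members, where 3.42% of all features reached it. Among the 15 was Trpm6, which passed the filter on dim probes through the enarodustat group alone, so the filter favoured a higher value there. The rest of the 15 were well above background on all 9 arrays. None of the members reached an unadjusted p under 0.05 in the lower direction (3.59% of all features), and none was lower without overlap (9.48%).

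Among the 27 members that were well above background on all 9 arrays, the lowest of the 3 enarodustat values lay above the highest of the 3 ob/ob vehicle values for 18, where 6.38% of the features that were equally above background on all 9 arrays, called equally bright below, did so. None lay below without overlap, where 9.75% of such features did. At least a 2-fold higher mean was found for 23 of the 27, against 1.72% of such features. The median log2 change of the 27 was 2.15, and that of equally bright features -0.027. Over all 33 tested members, 20 did not overlap (6.5% of all features) and 29 were at least 2-fold higher (2.46%). Some of the 33 passed the filter on dim probes through the enarodustat group alone, namely Atp6v0d2, Avpr2, Cldn8, Hsd11b2 and Trpm6. The filter thus favoured higher values in that group for them.

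For ob/ob vehicle against wild-type vehicle, the median log2 change of the 27 members was -0.093, against 0.033 over equally bright features. Of the 33 tested members 1 was called (7.55% of all features in either direction), and it was lower (2.66% of all features, against 4.89% called higher). It was also the 1 member lower at an unadjusted p under 0.05, where 9.8% of all features were. No member was higher without overlap, where 17.8% of all features were, and 1, Aqp3, was at least 2-fold higher (3.88%), with overlap. For enarodustat-treated ob/ob against wild-type vehicle, the median of the 27 was 1.85, against 0.0098 over equally bright features. Of the 33 tested, 1 was called (10.2% of all features in either direction), and it was higher (6.1% of all features, against 4.09% called lower). An unadjusted p under 0.05 was reached by 10, all higher (14.7%). Of the 33, 10 were higher without overlap (16.9% of all features) and 27 at least 2-fold higher (4.89%). Of the 27, 7 were higher without overlap, where 17.6% of equally bright features were. The comparisons share groups and are not independent of each other.

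**Figure D1:**
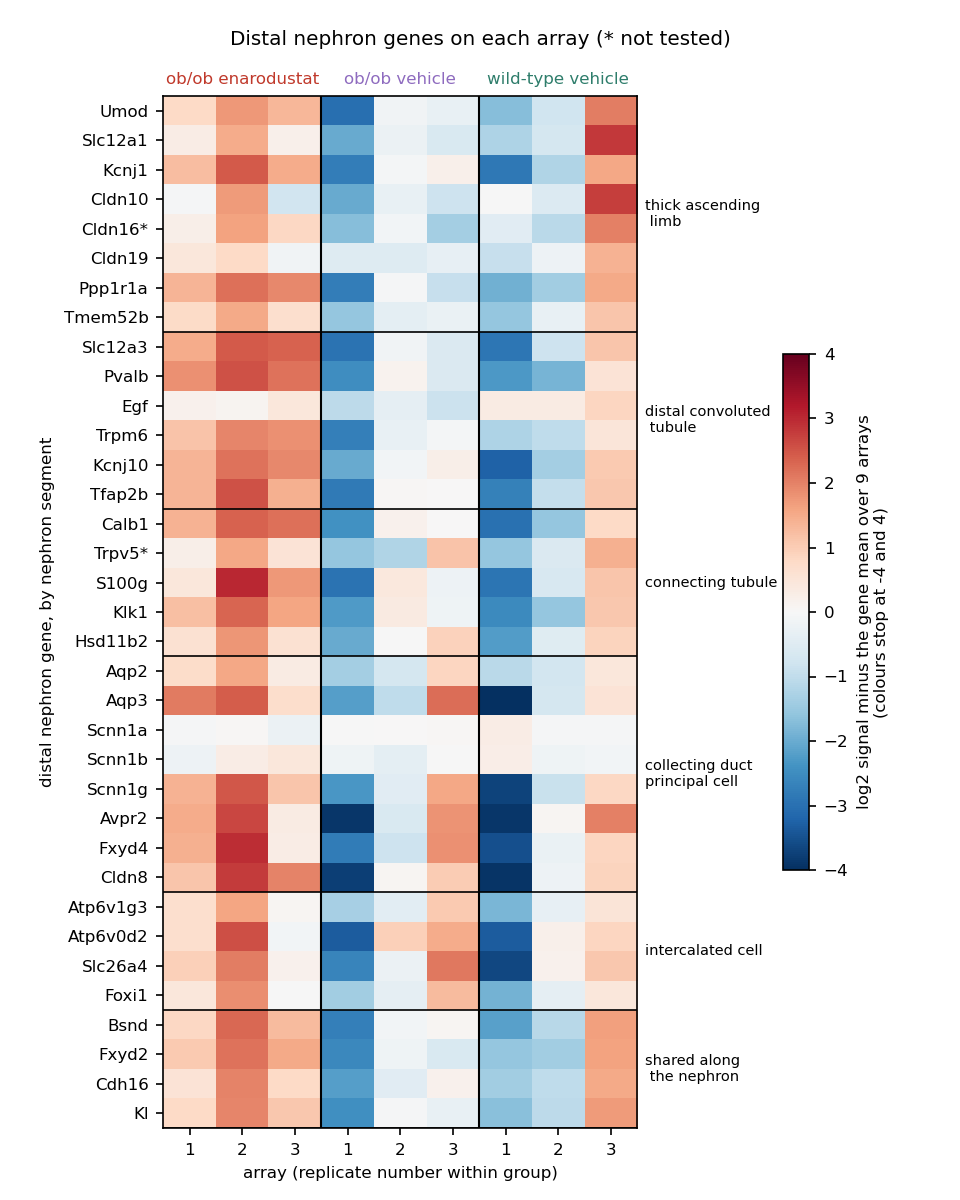
Log2 signal of each distal nephron gene on each of the 9 arrays, minus the gene's mean over the arrays, with ob/ob enarodustat at the left, ob/ob vehicle in the middle and wild-type vehicle at the right. Rows are grouped by nephron segment, colours stop at -4 and 4, and an asterisk marks the genes that were not tested. Enarodustat replicate 2 and wild-type replicate 3 are the reddest columns, and replicate 1 of both vehicle groups the bluest.

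The same arrays carried the extremes of most members. The highest of the 9 values lay on enarodustat replicate 2 for 19 of the 27 members well above background throughout, and on wild-type replicate 3 for 5. The lowest lay on ob/ob vehicle replicate 1 for 14 and on wild-type replicate 1 for 11. The range of these members over the 9 arrays had a median of 4.85 on the log2 scale, from 0.54 for Scnn1a to 6.49 for Fxyd4, a regulator of the sodium pump. It was 4 or more for 19 and under 1.5 for 2, Scnn1a and Scnn1b.

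Set against each gene's own mean over the 9 arrays, the median of the 27 members was 0.80, 2.04 and 0.79 on enarodustat replicates 1 to 3. It was -2.28, -0.18 and -0.0050 on ob/ob vehicle replicates 1 to 3, and -1.90, -0.72 and 1.09 on wild-type replicates 1 to 3. All 3 enarodustat arrays lay above all 3 ob/ob vehicle arrays, while wild-type replicate 3 lay above the lower 2 enarodustat arrays. The means were 1.21 ± 0.72 in enarodustat-treated ob/ob, -0.82 ± 1.26 in vehicle-treated ob/ob and -0.51 ± 1.51 in wild type (SD, n = 3 each). Summed over the 27 members, the signal was 215 to 443 times the 75th percentile of the array in the enarodustat group. It was 27.6 to 103 times in the ob/ob vehicle group, and 52.7 to 306 times in the wild-type group.

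Leaving out single arrays moved the counts for enarodustat against ob/ob vehicle, which is a check added after the values were seen. Of the 27, 18 were at least 2-fold higher without ob/ob vehicle replicate 1 and 19 without enarodustat replicate 2. Without any other array of these groups it was 22 to 24. Of the 33, 21 were without ob/ob vehicle replicate 1 (2.38% of all features), 23 without enarodustat replicate 2 (1.56%) and 28 to 30 without any other array (2.30% to 3.16%). Removing an array cannot make groups overlap, so the counts without overlap, then 20 to 29 of the 33 with 9.79% to 11.96% of all features, say nothing of stability.

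Markers of other cells differed between the same arrays. Of 33 proximal tubule genes, the markers of the tubule segment that leaves the glomerulus, 31 were tested, and none was called in any comparison by limma. Of all features, 7.55% were called in ob/ob vehicle against wild type, 10.2% in enarodustat-treated ob/ob against wild type and 0% between the ob/ob groups. An unadjusted limma p under 0.05 was reached by 9 of the 31 in ob/ob vehicle against wild type, all lower, where 9.8% of all features were. None of the 31 reached it between the ob/ob groups (7% of all features) or in enarodustat-treated ob/ob against wild type (26.8%). In ob/ob vehicle against wild type 11 of the 31 were lower without overlap (12.9% of all features) and none was higher without overlap (17.8%). Between the ob/ob groups 1 of the 31 was higher without overlap (6.5% of all features). The median log2 change of the proximal genes was 1.47 for enarodustat against vehicle in ob/ob, -2.18 for ob/ob vehicle against wild type and -0.83 for enarodustat-treated ob/ob against wild type. Their median level, relative to each gene's mean, was -0.66, 2.09 and -0.72 on enarodustat replicates 1 to 3. It was -0.88, -0.018 and -3.06 on ob/ob vehicle replicates 1 to 3, and 0.30, -0.22 and 3.25 on wild-type replicates 1 to 3. Enarodustat replicate 2 and wild-type replicate 3 were thus the highest in both lists, whereas the lowest array was ob/ob vehicle replicate 3 in the proximal list and ob/ob vehicle replicate 1 in the distal list. The summed proximal signal was 60.6 to 285 in the enarodustat group, 35.1 to 88.4 in the ob/ob vehicle group and 85.2 to 756 in the wild-type group, in multiples of the 75th percentile. The means of the proximal medians were 0.23 in the enarodustat group, -1.32 in the ob/ob vehicle group and 1.11 in the wild-type group, so the proximal list, like the distal one, had a higher mean with enarodustat than with vehicle in ob/ob. The part of tubule content in the differences below was not tested.

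Most glomerular markers were well above background on every array. Of 20 podocyte markers, 19 were well above background on all 9 arrays, as were 15 of 15 glomerular endothelial and 9 of 10 mesangial markers. Their medians relative to each gene's mean spanned far less than those of the distal genes. For podocytes they were -0.27, -0.80 and -0.18 in the enarodustat group, -0.35, -0.16 and -0.16 in the ob/ob vehicle group, and 0.55, 0.74 and 0.56 in the wild-type group. The podocyte median was thus lowest on enarodustat replicate 2. The mesangial median was lowest on wild-type replicate 3 (-0.94), against -0.24 and 0.054 on wild-type replicates 1 and 2. Endothelial medians lay between -0.28 and 0.18 on all arrays. Of the 20 podocyte markers, 10 were called lower in ob/ob vehicle than in wild type (2.66% of all features). In enarodustat-treated ob/ob 14 were called lower than in wild type (4.09%). None was called between the ob/ob groups, where no feature at all was called. Of 13 tested monocyte and macrophage markers, 12 were called higher in ob/ob vehicle than in wild type (4.89% of all features). In enarodustat-treated ob/ob 10 were called higher than in wild type (6.1%). The 75th percentile of the signal was 211 to 325 units, the share of probes well above background was 62.3% to 68.3%, and no spot was saturated.

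**Figure D2:**
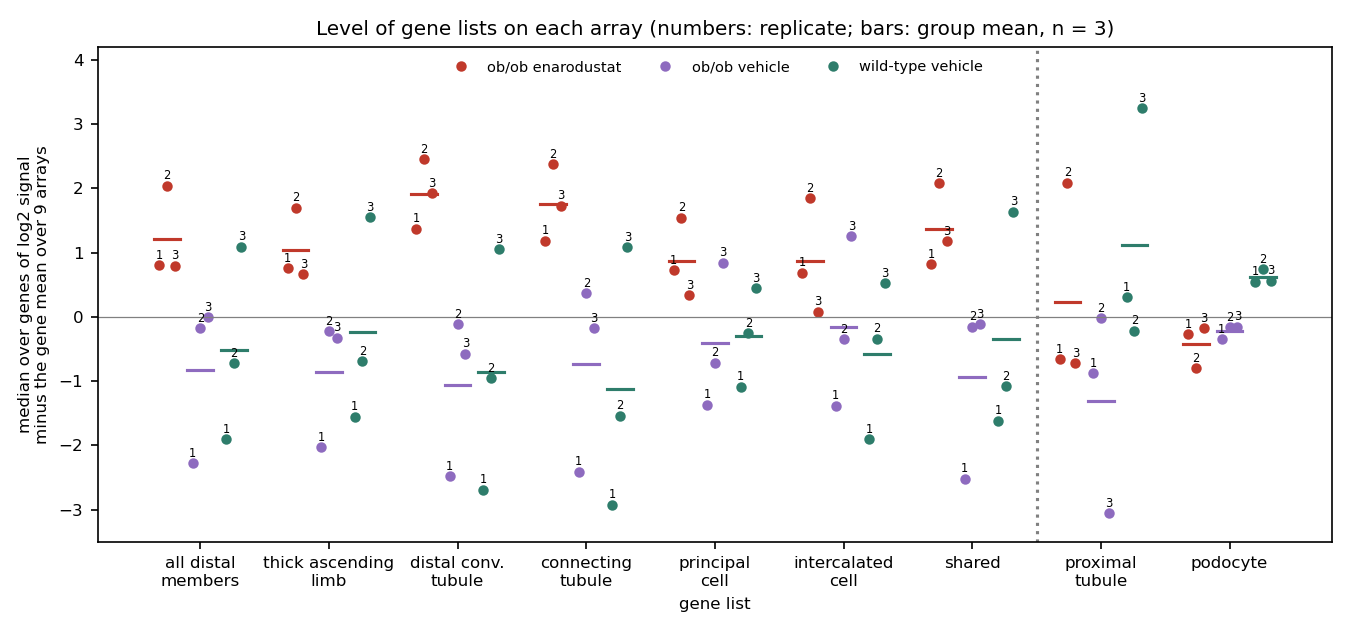
Level of each gene list on each array, as the median over its genes of the log2 signal minus the gene's mean over the 9 arrays, for members well above background on all arrays and for proximal tubule and podocyte markers. Points are arrays with their replicate number, in ob/ob enarodustat, ob/ob vehicle and wild-type vehicle from left to right, and bars are group means (n = 3). For the 27 distal genes the enarodustat arrays lie at 0.79 to 2.04, above all ob/ob vehicle arrays.

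The thick ascending limb takes back salt without water. Umod encodes uromodulin, the most abundant protein of normal urine, and its probe lies at chr7:126606529-126606588 on the minus strand of mm9, the build of the files. Umod had levels of 4.92, 5.86 and 5.45 on enarodustat replicates 1 to 3, against 1.10, 3.97 and 3.82 on ob/ob vehicle and 2.42, 3.32 and 6.17 on wild-type replicates 1 to 3. All enarodustat values were above all ob/ob vehicle values, and the wild-type values reached from near the lowest to the highest of all arrays. The difference between enarodustat and vehicle in ob/ob was 2.44 ± 1.02 (limma adjusted p = 0.709), and that between ob/ob vehicle and wild type was -1.01 ± 1.02 (adjusted p = 0.601).

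Slc12a1, the furosemide-sensitive sodium potassium chloride cotransporter, had levels of -0.83, 0.37 and -0.92 on enarodustat, against -3.14, -1.33 and -1.73 on ob/ob vehicle and -2.34, -1.80 and 1.70 on wild-type arrays. The ob/ob groups did not overlap, yet the highest value was that of wild-type replicate 3. Ppp1r1a had levels of -0.62, 0.22 and -0.065 on enarodustat, against -4.74, -2.03 and -2.92 on ob/ob vehicle and -3.92, -3.37 and -0.47 on wild-type arrays. Its difference between the ob/ob groups was 3.08 ± 0.93 (limma adjusted p = 0.683), with no overlap.

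The claudins of this segment form the paracellular path for sodium, calcium and magnesium. Cldn10 had levels of -2.44, -0.70 and -3.18 on enarodustat, against -4.41, -2.70 and -3.22 on ob/ob vehicle and -2.43, -2.94 and 0.37 on wild-type arrays. It was the 1 gene of the segment, among 8, whose values overlapped between the ob/ob groups. Cldn19 had levels of -3.32, -3.00 and -3.94 on enarodustat, against -4.30, -4.31 and -4.11 on ob/ob vehicle and -4.72, -3.99 and -2.39 on wild-type arrays. The ob/ob groups did not overlap, and the difference was 0.82 ± 0.52 (limma adjusted p = 0.766).

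Cldn16, which acts together with Cldn19, was well above background on 2 enarodustat arrays, on no ob/ob vehicle array and on 1 wild-type array. It averaged -4.69 in the enarodustat and -6.63 in the ob/ob vehicle group. With the ob/ob vehicle values raised to a floor it was 1.27-fold higher in the enarodustat group, with no test. The floor on each ob/ob vehicle array was the lowest signal well above background, or the probe's own value where that was higher. The enarodustat mean kept its own values, also where the probe was not well above background, so 1.27 is not a strict lower limit. Kcnj1, the potassium channel that recycles potassium in this segment, and Tmem52b had differences of 2.61 and 1.72 between the ob/ob groups, also without overlap.

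In ob/ob vehicle against wild type, all 7 tested genes of the segment had log2 changes below 0, from -1.78 for Cldn10 to -0.050 for Kcnj1, and none passed (Cldn10 limma adjusted p = 0.296). That direction turned for several of them without wild-type replicate 3. Without that array the change was 0.094 for Umod, 0.0057 for Slc12a1, 0.11 for Cldn19 and 0.41 for Ppp1r1a. The change of Ppp1r1a also turned without ob/ob vehicle replicate 1 (0.105).

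The distal convoluted tubule fine-tunes salt and is the main site of regulated magnesium uptake. The probe of Slc12a3, the member with the largest difference between the ob/ob groups, is printed with the position and strand that the files give for mm9.
Slc12a3 probe, chr8:96875636-96875695, plus strand: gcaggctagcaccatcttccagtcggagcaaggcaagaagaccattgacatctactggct
Slc12a3 had levels of 1.37, 2.33 and 2.24 on enarodustat, against -3.07, -0.27 and -0.71 on ob/ob vehicle and -3.00, -0.94 and 0.98 on wild-type arrays. The enarodustat values lay above those of both other groups. The difference between enarodustat and vehicle in ob/ob was 3.33 ± 1.01 (limma adjusted p = 0.683), and that between enarodustat-treated ob/ob and wild type was 2.97 ± 1.01 (adjusted p = 0.103).

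Pvalb marks the early part of this segment. Pvalb had levels of 4.22, 4.93 and 4.56 on enarodustat, against -0.085, 2.53 and 1.82 on ob/ob vehicle and 0.096, 0.55 and 2.94 on wild-type arrays. Its 3 enarodustat values were close together and above all others, and both vehicle groups were wide. It averaged 4.57 ± 0.36 in the enarodustat group, 1.42 ± 1.35 in the ob/ob vehicle group and 1.20 ± 1.53 in the wild-type group (SD, n = 3 each).

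The difference of Pvalb between enarodustat-treated ob/ob and wild type was 3.37 ± 0.82 (limma adjusted p = 0.0370), and it was the only member called in that comparison. The call did not hold when any single enarodustat array, replicate 1 or 2 of wild type or replicate 3 of ob/ob vehicle was removed (adjusted p up to 0.114). Nor did it hold with no filter on dim probes (adjusted p = 0.0814). The difference between the ob/ob groups was 3.15 ± 0.82 (limma adjusted p = 0.682).

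Trpm6, the magnesium channel of the apical membrane, had levels of -3.44, -2.65 and -2.77 on enarodustat, against -7.33, -4.90 and -4.67 on ob/ob vehicle and -5.83, -5.59 and -4.12 on wild-type arrays. The enarodustat values were the highest, although its probe was well above background on only 2 ob/ob vehicle arrays and 1 wild-type array. Kcnj10, a potassium channel of the basolateral membrane, had levels of 1.14, 1.93 and 1.69 on enarodustat, against -2.26, -0.35 and -0.0080 on ob/ob vehicle and -3.48, -1.58 and 0.82 on wild-type arrays. Its enarodustat values were again above those of both other groups. Tfap2b, a transcription factor of the distal tubule, differed by 2.70 between the ob/ob groups, without overlap.

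Egf departed from the other members. It had levels of 4.34, 4.29 and 4.61 on enarodustat, against 3.10, 3.82 and 3.31 on ob/ob vehicle and 4.50, 4.50 and 5.02 on wild-type arrays. The ob/ob vehicle values were the lowest 3 of the 9, and the range over all arrays was 1.92, where the median of the 27 members was 4.85. Egf averaged 4.41 ± 0.17 in the enarodustat group, 3.41 ± 0.37 in the ob/ob vehicle group and 4.67 ± 0.30 in the wild-type group (SD, n = 3 each).

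Egf fell by 1.26 ± 0.22 in ob/ob vehicle relative to wild type (limma adjusted p = 0.0117). The call held when each array was left out in turn, with an adjusted p of up to 0.0437. The difference between enarodustat and vehicle in ob/ob was 1.00 ± 0.22 (limma adjusted p = 0.592), without overlap. Between enarodustat-treated ob/ob and wild type it was -0.26 ± 0.22 (adjusted p = 0.490), and those groups overlapped.

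The file has 3 probes for Egf, all on the minus strand of chromosome 3 in mm9 and all well above background on the 9 arrays. The one used above, the brightest, lies at chr3:129380577-129380636, another at chr3:129402544-129402603 and the last at chr3:129438400-129438459. In ob/ob vehicle against wild type they were lower by log2 changes of -1.26, -1.73 and -1.87, each called as its own feature by limma (adjusted p = 0.0116, 0.0240 and 0.00162). For the second value, leaving out replicate 1 or 3 of ob/ob vehicle, or 2 or 3 of wild type, ended the call (adjusted p up to 0.0798).
The probe at chr3:129438400-129438459 was also lower in enarodustat-treated ob/ob than in wild type, with a change of -1.30 ± 0.18 (limma adjusted p = 0.00515). The other two had changes of -0.26 and -0.68 there and were not called. The 3 probes carry different transcript accessions in the file, so they need not read the same RNA.

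**Figure D3:**
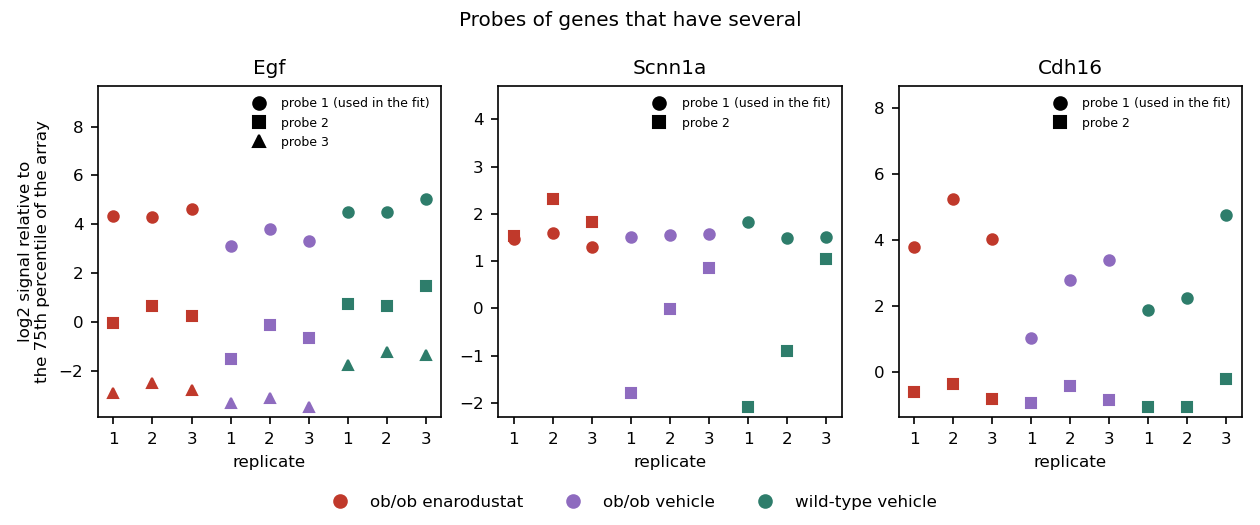
Log2 signal relative to the 75th percentile of the array for each probe of Egf, Scnn1a and Cdh16, on the 3 replicates of ob/ob enarodustat, ob/ob vehicle and wild-type vehicle from left to right. All 3 Egf probes are lowest in the ob/ob vehicle group, while one probe each of Scnn1a and Cdh16 spans about 4 log2 units and the other less than 1.

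The connecting tubule carries active calcium transport. Calb1, the intracellular calcium carrier calbindin, had levels of 3.37, 4.36 and 4.19 on enarodustat, against -0.42, 2.15 and 2.02 on ob/ob vehicle and -0.99, 0.44 and 2.79 on wild-type arrays. The enarodustat values were above all others, with a difference of 2.72 ± 0.97 from ob/ob vehicle (limma adjusted p = 0.709) and of 3.23 ± 0.97 from wild type (adjusted p = 0.0729). A second Calb1 probe, tested as its own feature, was called higher against wild type (2.88 ± 0.76, limma adjusted p = 0.0483). That call held only when wild-type replicate 3 was left out, and was lost without any other array (adjusted p up to 0.127).

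S100g, another vitamin D-dependent calcium-binding protein, and Klk1, tissue kallikrein, differed by 2.63 and 2.39 between the ob/ob groups, both without overlap. Hsd11b2, the enzyme that shields the mineralocorticoid receptor from glucocorticoids, differed by 1.36 with overlap. Trpv5, the apical calcium channel, was well above background only on wild-type replicate 3, so no fold is given.

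Principal cells of the collecting duct take up sodium and water. Aqp2, the vasopressin-regulated water channel, is read by a probe whose coordinates span 977 bases of the genome for a probe of 60 bases. That probe and that of Scnn1b are shown because they read a gene whose ob/ob groups overlapped.
Aqp2 probe, chr15:99412578-99413554, plus strand: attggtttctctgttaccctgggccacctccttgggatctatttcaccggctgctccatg
Scnn1b probe, chr7:129042869-129042928, plus strand: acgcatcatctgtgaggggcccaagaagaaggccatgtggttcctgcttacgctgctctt
Aqp2 had levels of 1.70, 2.52 and 1.31 on enarodustat, against -0.40, 0.26 and 1.82 on ob/ob vehicle and -0.11, 0.25 and 1.42 on wild-type arrays. Replicate 3 of either vehicle group lay above the lowest enarodustat value. The difference between the ob/ob groups was 1.28 ± 0.61 (limma adjusted p = 0.717).

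Scnn1b had levels of -4.22, -3.72 and -3.58 on enarodustat, against -4.19, -4.43 and -4.04 on ob/ob vehicle and -3.77, -4.19 and -4.13 on wild-type arrays. All 9 values lay within 0.86 of each other. Scnn1a spanned 0.54 on its brighter probe, with a change of -0.091 ± 0.13 between the ob/ob groups. Scnn1g, the gamma subunit of the same channel, differed by 2.07 ± 1.22 between the ob/ob groups, with overlap. It was well above background on 8 of the 9 arrays, all but 1 of wild type.

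Aqp3, the basolateral water channel, Fxyd4 and Avpr2, the vasopressin receptor, differed by 2.06, 2.15 and 2.40 between the ob/ob groups. All 3 overlapped, because ob/ob vehicle replicate 3 was higher than at least 1 enarodustat array. Cldn8, a claudin of the collecting duct, was the 1 gene of 8 in this segment without overlap (limma adjusted p = 0.739). Its probe was well above background on 3 enarodustat, 2 ob/ob vehicle and 2 wild-type arrays, so it passed the filter through the enarodustat group, and the size of its difference is not measured on the dim arrays. The same holds for Avpr2. No gene of the segment was called in any comparison.

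Intercalated cells secrete acid or bicarbonate. Slc26a4, the chloride bicarbonate exchanger pendrin, had levels of 0.86, 1.95 and 0.080 on enarodustat, against -2.73, -0.32 and 2.00 on ob/ob vehicle and -3.74, 0.064 and 1.00 on wild-type arrays. The highest value of the 9 was that of ob/ob vehicle replicate 3. Atp6v1g3, a subunit of the proton pump, had levels of -2.75, -1.85 and -3.35 on enarodustat, against -4.76, -3.87 and -2.37 on ob/ob vehicle and -5.25, -3.77 and -2.91 on wild-type arrays. The groups overlapped in the same way.

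All 4 intercalated genes overlapped between the ob/ob groups, with differences from 0.92 for Foxi1, the transcription factor of these cells, to 1.35 for Atp6v0d2, another pump subunit, which like Hsd11b2 passed the filter only through the enarodustat group. The median log2 change between enarodustat and vehicle in ob/ob was 1.16 over the 4. It was 1.72 over the 7 tested genes of the thick ascending limb, 2.69 over the 6 of the distal convoluted tubule and 2.51 over the 4 of the connecting tubule. It was 2.30 over the 4 shared along the nephron. For principal cells it was 2.07 over all 8 but 1.28 over the 5 that were well above background throughout. Over the genes well above background throughout it was 1.02 for the 3 intercalated genes, 2.70 for the 5 of the distal convoluted tubule and 2.63 for the 3 of the connecting tubule. The differences between segments were not tested. Relative to each gene's mean, the median of the 3 intercalated genes well above background throughout was 1.26 on ob/ob vehicle replicate 3, against -0.58 for the 5 such genes of the distal convoluted tubule on the same array.

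Genes shared along the nephron were Cdh16, a cadherin of kidney tubules, Kl, the co-receptor klotho of a phosphate-lowering hormone, Bsnd, the chloride channel subunit barttin, and Fxyd2, the gamma subunit of the sodium pump. Cdh16 had levels of 3.79, 5.24 and 4.03 on enarodustat, against 1.03, 2.80 and 3.40 on ob/ob vehicle and 1.86, 2.23 and 4.77 on wild-type arrays. Kl had levels of 0.68, 1.82 and 0.95 on enarodustat, against -2.57, -0.18 and -0.43 on ob/ob vehicle and -1.79, -1.16 and 1.57 on wild-type arrays. In both genes the ob/ob groups did not overlap, and wild-type replicate 3 was among the highest arrays.

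The difference between the ob/ob groups was 1.94 ± 0.85 for Cdh16 and 2.21 ± 0.91 for Kl (limma adjusted p = 0.709 for both). Bsnd and Fxyd2 differed by 2.40 and 2.70, also without overlap. All 4 had log2 changes below 0 in ob/ob vehicle against wild type, from -0.68 to -0.38, and none passed. Without wild-type replicate 3 the change was 0.36 for Cdh16 and 0.41 for Kl, and without ob/ob vehicle replicate 1 it was 0.145 and 0.155.

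**Figure D4:**
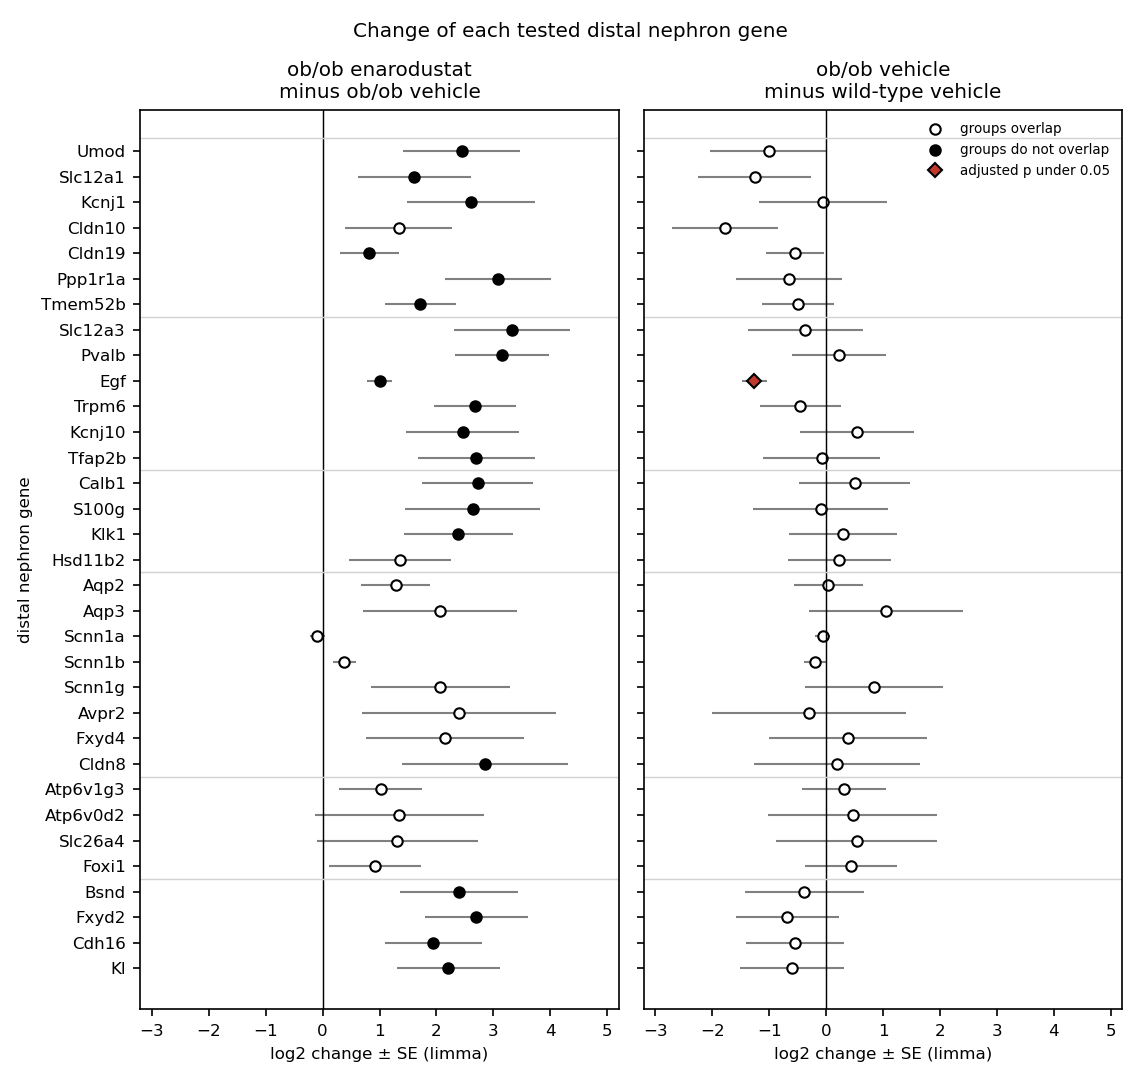
Log2 change ± SE (limma) of each tested distal nephron gene, ordered by nephron segment, for ob/ob enarodustat minus ob/ob vehicle at the left and ob/ob vehicle minus wild-type vehicle at the right. Open circles mark groups that overlap, filled circles groups that do not, and the diamond an adjusted p under 0.05. At the left 20 of 33 genes are filled, and at the right the only mark that is not open is Egf.

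Probes of the same gene did not always give the same picture. The brighter Scnn1a probe, at chr6:125293939-125293998, had levels of 1.29 to 1.59 on enarodustat, 1.51 to 1.58 on ob/ob vehicle and 1.48 to 1.83 on wild-type arrays. The second, at chr6:125294843-125294902, had levels of 1.53 to 2.31 on enarodustat, -1.80 to 0.86 on ob/ob vehicle and -2.08 to 1.05 on wild-type arrays. The brighter probe thus hardly differed between arrays, and the other behaved like most members, with a difference of 2.20 ± 0.83 between the ob/ob groups (limma adjusted p = 0.745).

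For Cdh16 it was the brighter probe, at chr8:107138101-107138160, that varied. The second, at chr8:107126042-107126101, stayed between -1.07 and -0.22 on all 9 arrays and differed by 0.14 ± 0.25 between the ob/ob groups. The other probes of Calb1, Tfap2b and Kl that passed the filter gave differences of 1.95 to 2.90 between the ob/ob groups, the same direction as the probes used. The sources used here do not give the exon or untranslated region each probe reads.

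Other genes of the distal nephron, outside the 35, were read from a list of 49. Gata3 is on this list and also among the mesangial markers. Of the 49, 46 were tested, and Elf5, Irx2 and Sim1 were not. Their median log2 change was 1.36 for enarodustat against vehicle in ob/ob, where that of all features was -0.026, and it was -0.052 for ob/ob vehicle against wild type. None was called between the ob/ob groups. Of the 46, 13 had an unadjusted limma p under 0.05, all higher, where 3.42% of all features did. Higher without overlap were 19, where 6.5% of all features were. Only 37 of the 46 were well above background on every array. Cldn3 and Pou3f3, among both the 13 and the 19, were not, nor were Casr and Oxgr1, among the 19. For such genes the filter on dim probes may have favoured higher values in the enarodustat group. A comparison with equally bright features was not made for this list.

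The smallest p-values between the ob/ob groups belonged to Tmem72, Cnnm2 and Wnk4. Tmem72 differed by 1.48 ± 0.42 and Cnnm2, which takes part in magnesium transport, by 0.82 ± 0.25 (limma adjusted p = 0.683 for both). Wnk4, a kinase that controls the thiazide-sensitive cotransporter, differed by 2.32 ± 0.84 (adjusted p = 0.709). All 3 were without overlap.

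Slc26a7, an anion exchanger of intercalated cells, had levels of -2.24, -2.22 and -1.63 on enarodustat, against -2.33, -2.07 and -2.17 on ob/ob vehicle and -0.69, -0.51 and -0.55 on wild-type arrays. It fell by 1.61 ± 0.17 in ob/ob vehicle relative to wild type (limma adjusted p = 0.00260), and by 1.45 ± 0.17 in enarodustat-treated ob/ob (adjusted p = 0.00343). Both calls held when each array was left out. In contrast to most members, its replicates were close together and the ob/ob groups overlapped.

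Tmem207 rose by 1.01 ± 0.25 in ob/ob vehicle relative to wild type (limma adjusted p = 0.0470). Leaving out any wild-type array, replicate 1 or 3 of ob/ob vehicle or replicate 2 of enarodustat ended that call (adjusted p up to 0.136). In enarodustat-treated ob/ob relative to wild type, Stk39, a kinase that activates the salt cotransporters, rose by 0.70 ± 0.14 (adjusted p = 0.0193) and Mal, a protein of apical membrane traffic, by 1.57 ± 0.34 (adjusted p = 0.0252). Stk39 was no longer called with replicate 3 of enarodustat or 2 of wild type left out (adjusted p up to 0.0661), nor Mal with any enarodustat array or replicate 1 or 2 of wild type left out (up to 0.0764).

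Promoter windows of the members were searched for short motifs of transcription factors. RefSeq windows in GRCm38.p6, from 250 bases before to 50 after a start, were matched by symbol for 26 of the 35 members, 30 windows in all. The core of the HIF site, ACGTG or GCGTG on either strand, occurred in 10 of the 30 (33.3%), where 43.8% of 32851 windows of the same length held it. The core GTTAAT of the site of HNF1, a transcription factor of tubule epithelium, occurred in 4 (13.3%), those of Umod, Cldn10, Tfap2b and Atp6v1g3, against 7.10% of all windows. A match is a run of letters and not a site.

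The bases before the start are shown for Umod, with the HNF1 core in capitals, and for Aqp2, where capitals mark a HIF core that reads on both strands and so counts as overlapping matches. The members shown stand for the thick ascending limb and for the collecting duct.
Umod, chr7:119479263-119479512, minus strand: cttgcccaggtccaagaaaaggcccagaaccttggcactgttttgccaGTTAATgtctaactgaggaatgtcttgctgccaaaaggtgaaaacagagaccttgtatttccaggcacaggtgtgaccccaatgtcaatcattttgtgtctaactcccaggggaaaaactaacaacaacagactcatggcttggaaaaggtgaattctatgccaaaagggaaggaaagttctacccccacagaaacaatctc
Aqp2, chr15:99578806-99579055, plus strand: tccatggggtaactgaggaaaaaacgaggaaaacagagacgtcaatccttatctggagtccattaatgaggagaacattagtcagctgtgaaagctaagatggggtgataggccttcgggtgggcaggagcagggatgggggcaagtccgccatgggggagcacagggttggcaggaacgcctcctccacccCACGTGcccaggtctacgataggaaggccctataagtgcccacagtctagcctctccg
The groups of Umod did not overlap between enarodustat and vehicle in ob/ob, and those of Aqp2 did. Whether the motifs go with the differences in level was not tested.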

How the data were processed

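Per the labels' protocols, Cy3-labelled total RNA of glomeruli was read on 9 one-colour Agilent arrays, 3 a group. Per the file headers, the authors' scans were extracted with version 11.5.1.1 of Feature Extraction. The submitters' processing notes list limma too. The deposited scanner files hold the intensity of each spot on a linear scale, background-subtracted but, per the file headers, with no scaling of arrays to each other. The deposited value table holds log2 values whose scale, found from the values, was log2 of the same signal minus a constant near the 75th percentile, with no gene centring and column medians of -3.10 to -2.93.

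Levels used here are log2 processed signals from which the array's 75th percentile was subtracted. Of 62976 spots per array, 3671 controls were left out, as were spots marked as outliers. Probes that were well above background on all 3 arrays of any group were kept (36671), and the brightest such probe stood for its gene. The 24150 features were fitted with limma 3.58.1 (lmFit, contrasts.fit, eBayes) in R 4.3.3 (package data.table at 1.17.8), on 9 arrays in 3 groups. Benjamini-Hochberg adjustment ran over all features, with calls under 0.05. The fit was tested on simulated data.

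Values on every array are given for members called in any comparison, for the 5 members with the smallest p in each, and for 11 anchors (Umod, Slc12a1, Slc12a3, Pvalb, Calb1, Aqp2, Scnn1b, Slc26a4, Atp6v1g3, Cdh16, Kl), 17 genes in all. Of the other distal genes, those called are named, or else the 3 with the smallest p. The members, lists and alternatives were chosen with earlier results of these data known. All arrays but enarodustat replicate 3 share a slide, so a slide block equals leaving that array out.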

Additional observations from a re-analysis of the deposited data

How the results depend on the processing

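The number of members called in ob/ob vehicle against wild type (1) and between the ob/ob groups (0) was the same under every alternative run. With single arrays left out, the median change of the members was 1.25 to 2.87 between the ob/ob groups and 1.00 to 2.80 for enarodustat-treated ob/ob against wild type, whereas for ob/ob vehicle against wild type it was -0.99 to 0.86 and so had no settled direction. Members called in enarodustat-treated ob/ob against wild type (1) were 2 with normexp, 0 without the filter on dim probes, 2 with only the groups compared, 9 with array weights and 0 to 7 when single arrays were left out. They were 0 with any enarodustat array, replicate 1 or 2 of wild type or replicate 3 of ob/ob vehicle left out, 7 without replicate 3 of wild type and 2 without replicate 1 of ob/ob vehicle. The member added with normexp was Trpm6, whose log2 change was then 0.57, against 2.22 in the main fit. Over all features, the deviations of same-numbered replicates from their group means had correlations from -0.31 to 0.27. With 3 arrays a group, these values do not settle whether the numbers pair the samples. With the replicate number as a block, 6 members were called in enarodustat-treated ob/ob against wild type. The slide block was not run, since it equals leaving out enarodustat replicate 3. Features called in ob/ob vehicle against wild type (1824) were 1004 without the filter, 4168 with array weights and 912 to 1773 without single arrays. In enarodustat-treated ob/ob against wild type (2461) they were 1228, 4518 and 1218 to 2163, and 1290 with replicate 3 of wild type and 2 of enarodustat both left out.

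Some changes that did not pass turned their sign, and the cause was not tested. In ob/ob vehicle against wild type these were Aqp2 with quantile normalization (-0.0024) and Trpm6 with normexp (0.013), and with array weights Cdh16 (0.11), Kl (0.12) and Ppp1r1a (0.18). With replicate 3 of wild type and 2 of enarodustat both left out they were Cdh16 (0.36), Cldn19 (0.11), Kl (0.41), Ppp1r1a (0.41), Slc12a1 (0.0057), Slc12a3 (0.62), Trpm6 (0.079) and Umod (0.094). When single arrays were left out, the range was -0.59 to 0.52 for Aqp2, -0.34 to 0.86 for Atp6v1g3, -0.37 to 1.52 for Calb1, -1.09 to 0.36 for Cdh16, -1.05 to 0.11 for Cldn19, -0.49 to 1.66 for Kcnj10 and -1.27 to 0.41 for Kl. It was -1.32 to 0.41 for Ppp1r1a, -0.33 to 1.10 for Pvalb, -2.02 to 0.0057 for Slc12a1, -1.37 to 0.62 for Slc12a3, -0.88 to 1.73 for Slc26a4, -0.93 to 0.40 for Trpm6 and -1.78 to 0.094 for Umod. In enarodustat-treated ob/ob against wild type Cldn10 turned with array weights (0.36), and without single arrays ranged from -1.14 to 0.57, Cldn19 from -0.23 to 0.93 and Slc12a1 from -0.41 to 1.62. Signals near background limit Trpm6, Hsd11b2, Avpr2, Cldn8, Atp6v0d2 and Scnn1g, which were not well above background on all arrays.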
